A study of Mus musculus with 48 samples.

Results

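The 10 genes described here build or cross-link the elastic fibre: elastin (Eln), the lysyl oxidases Lox, Loxl1 and Loxl2, the fibulins Fbln5 and Efemp2 (fibulin-4), fibrillin-1 (Fbn1), the microfibril-associated Mfap4 and Mfap5, and Emilin1. They are 10 of the 42548 genes in the count table, chosen by Ensembl identifier from a list written with earlier results of these data known. The series measured RNA from 24 mice, each sampled as epithelium and as whole lung, 48 libraries in all. Epithelial RNA was recovered with an anti-HA antibody from RiboTag mice, whose ribosomes bear an HA tag in the cells chosen. The driver of the tag in epithelium, the strain, the age of the mice, the doses and the times are not stated in the sources used here. The labels give the same precipitation protocol for both compartments, so a difference between compartments may include a difference in preparation.

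The 4 mice given bleomycin and 3G9 were all in batch S151. The 5 mice given bleomycin and KIRA8 were 3 in batch S061 and 2 in S135. The 9 bleomycin control mice were 3 in S061, 2 in S135 and 4 in S151. The 6 saline mice were 3 in S135 and 3 in S151. Mice of both sexes were used, unevenly over the arms and batches. Both arms of S061 held females and males, the only female of S135 was saline mouse 146, and each arm of S151 held a single female. Control treatment, in saline and bleomycin mice alike, was labelled Vehicle in S061 and S135 and Axum8 in S151. KIRA8 is an inhibitor of the endoplasmic reticulum stress sensor IRE1α, and 3G9 is an antibody to the integrin αvβ6, which activates TGFβ on epithelial cells. Bleomycin injures the lung and is a common model of fibrosis.

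Elastic fibres give the lung its recoil. Tropoelastin, the product of Eln, is laid onto microfibrils of fibrillin with the help of the fibulins, and lysyl oxidases oxidise lysines in elastin and collagen so that the chains cross-link. Fibroblasts and smooth muscle cells are the main makers of these proteins in lung, and many of the genes respond to TGFβ.

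Library totals ran between 7163613 and 36057881 counts in epithelium and between 11484883 and 51797377 in whole lung. Levels are given as CPM, which is the count divided by the library total and scaled by 1000000. Reads come from the 3′ end of RNA and are not scaled to gene length, so levels are not compared between genes. Folds are log2 differences ± 1 standard error from an edgeR quasi-likelihood fit over the 24 libraries of a compartment with batch as a term, and a gene was called at an adjusted p under 0.05 over all genes tested. All 10 genes passed the filter on low counts in both fits. RNA that is scarce in epithelium was followed through 1340 genes that were at least 8-fold lower in epithelium than in whole lung of saline mice. The 10 genes were left out of this set by rule, although Mfap5, Loxl1, Eln, Loxl2, Mfap4 and Emilin1 met the cut. The 1340 genes made up 0.245% to 0.898% of epithelial counts in S135 and S151 but 5.02% to 10.3% in S061. A set of 146 batch-limited genes, which may share members with the 1340, was high in every S061 library and near absent in most others. It made up 6.01% to 12.7% of epithelial counts in S061 and at most 0.0529% of epithelial counts elsewhere. Fewer cells of a type and less RNA per cell cannot be told apart in these samples, and the lists of symbols for other cell types were not applied, because the table carries Ensembl identifiers without symbols.

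Eln (ENSMUSG00000029675, chromosome 5: 134702595-134747368, GRCm38.p6) was counted at an appreciable level in a single batch. Whole lung libraries held 151.3 to 1357 CPM of Eln in S151, against 0.174 to 1.78 CPM in every library of S061 and S135. Epithelial libraries held 5.25 to 195 CPM in S151, against 0 to 0.271 CPM elsewhere. The lowest whole lung library of S151 was 85.1 times the highest of the other batches. No other member had a gap of this size: the lowest S151 whole lung library was 2.20 times the highest other library for Efemp2 and 2.04 times for Mfap4, and the ranges overlapped for the remaining 7. Among saline mice, 31 of 12558 whole lung genes over 5 CPM had a larger fold of S151 over S135 than Eln, whose fold was 856. Eln therefore carries information on bleomycin and 3G9 in S151, and at most 72 counts per library in the batches that hold the KIRA8 mice.

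**Figure D1:**
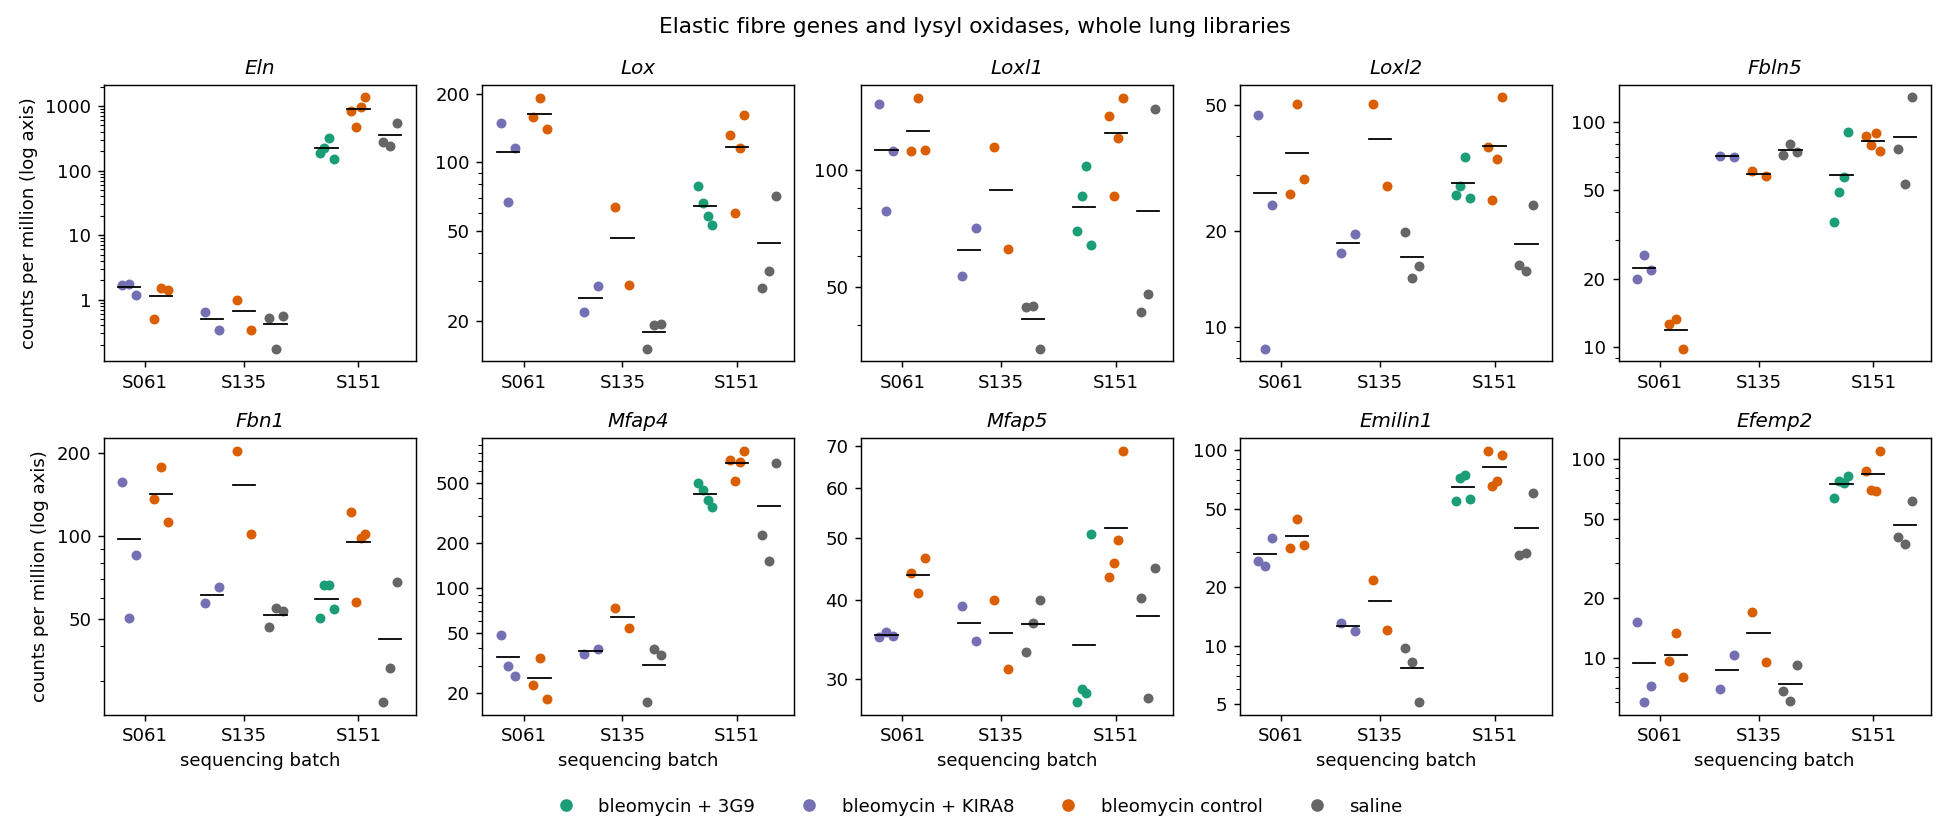
CPM of the 10 genes in the 24 whole lung libraries (log axes), by sequencing batch and arm. Points are mice and horizontal lines are group means. Eln lies under 2 CPM in S061 and S135 and between 151.3 and 1357 CPM in S151, while the other genes are measured in all 3 batches.

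After bleomycin, the 3 lysyl oxidases rose in both compartments. Lox (ENSMUSG00000024529, chromosome 18: 52516060-52529867), the family's best known cross-linker of collagen and elastin, was higher by 1.24 ± 0.24 in whole lung (adjusted p = 0.00253, edgeR) and by 1.53 ± 0.29 in epithelium (adjusted p = 0.000912, edgeR). In whole lung, Lox had 63.7 and 28.8 CPM in bleomycin control mice of S135, against 15.1, 19.2 and 19.3 CPM in saline mice. In S151 it had 132, 59.9, 116 and 161 CPM in bleomycin control mice, against 27.9, 33.1 and 71.2 CPM in saline mice. Both bleomycin mice of S135 stood above all saline mice there, and in S151 the groups overlapped through bleomycin mouse 206 at 59.9 CPM and saline mouse 230 at 71.2 CPM. In epithelium, Lox had 10.6 and 5.86 CPM in bleomycin control mice of S135, against 2.57, 2.15 and 2.88 CPM in saline mice. In S151 it had 16.9, 4.49, 15.3 and 26.2 CPM in bleomycin control mice, against 3.76, 2.42 and 5.34 CPM in saline mice. Mouse 206 again was the bleomycin mouse that fell within the saline range.

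Loxl1 (ENSMUSG00000032334, chromosome 9: 58287723-58313212), which cross-links elastin in particular, rose by 0.72 ± 0.23 in whole lung (adjusted p = 0.0469, edgeR) and by 1.55 ± 0.34 in epithelium (adjusted p = 0.0043, edgeR). In epithelium of S135 it had 9.53 and 7.37 CPM in bleomycin control mice, against 1.11, 0.826 and 3.20 CPM in saline mice. In S151 the gene had 5.98, 7.76, 21.4 and 8.38 CPM in bleomycin control mice, against 2.46, 3.36 and 3.45 CPM in saline mice. The epithelial groups did not overlap in either batch. In whole lung, saline mouse 230 at 144 CPM of Loxl1 lay inside the S151 bleomycin range of 86.0 to 153 CPM, and the other saline mice at 43.2 and 48.1 CPM lay below it.

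Loxl2 (ENSMUSG00000034205, chromosome 14: 69608692-69695834), a lysyl oxidase best known for its action on basement membrane and fibrillar collagen, rose by 0.93 ± 0.26 in whole lung (adjusted p = 0.0262, edgeR) and by 1.58 ± 0.46 in epithelium (adjusted p = 0.0296, edgeR). Whole lung levels were 50.3 and 27.8 CPM in bleomycin control mice of S135, against 19.9, 14.2 and 15.6 CPM in saline mice. In S151 they were 36.9, 25.1, 33.7 and 52.7 CPM in bleomycin control mice, against 15.6, 14.98 and 24.3 CPM in saline mice. In CPM the groups were apart in both batches. Divided by TMM factors, bleomycin mouse 206 falls under saline mouse 230 in S151. Epithelial Loxl2 was low, at 1.63 to 7.61 CPM in the 6 bleomycin control mice of S135 and S151 and 0.251 to 2.05 CPM in the 6 saline mice, and in those batches rested on 27 to 147 counts in a bleomycin library and 4 to 55 in a saline library.

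Eln rose as well, by 1.05 ± 0.33 in whole lung (adjusted p = 0.0478, edgeR) and by 2.12 ± 0.61 in epithelium (adjusted p = 0.0315, edgeR). In S151 whole lung it had 851, 477, 955 and 1357 CPM in bleomycin control mice, against 282, 241 and 556 CPM in saline mice. In S151 epithelium it had 34.1, 20.7, 195 and 55.5 CPM in bleomycin control mice, against 5.77, 18.1 and 17.97 CPM in saline mice. In CPM all epithelial bleomycin libraries stood above the saline ones, and in whole lung the lowest bleomycin mouse fell under saline mouse 230. CPM uses library totals, whereas TMM factors in S151 epithelium were 1.093 to 1.33 in bleomycin control mice and 0.8096 to 0.992 in saline mice. Divided by these factors, epithelial Eln of bleomycin mouse 206 falls under saline mouse 221. By library totals, 20.3% of 17291 epithelial genes were called higher after bleomycin and 0.677% lower. In S151 alone, the folds were 1.21 ± 0.37 in whole lung (adjusted p = 0.103, edgeR) and 2.10 ± 0.71 in epithelium (adjusted p = 0.137, edgeR), short of a call with these 4 and 3 mice.

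Among the microfibril and assembly genes, the calls were not the same in the fits of the 2 compartments, and no difference between compartments passed its own test. In whole lung, Fbn1, Emilin1 and Efemp2 rose, while Mfap4, Mfap5 and Fbln5 were not called. In epithelium, Mfap5 rose by 1.40 ± 0.40 (adjusted p = 0.028, edgeR) and the other 5 were not called. In all, 7 of the 10 genes were called higher in whole lung, against 6.01% of the 19345 genes tested, and 5 of 10 in epithelium, against 4.55% of 17291. None was called lower in either. Lox and Eln are in both counts. The list was written with Lox under KIRA8 and Eln under 3G9 known to lie below bleomycin control. Their bleomycin folds use the same bleomycin control libraries, so these calls are not independent of the choice of genes. Ranges of CPM apart within a batch were common among all genes with a mean of at least 1 CPM. In S135 epithelium 3356 of 12835 were wholly higher after bleomycin and 1070 wholly lower, with 5 and 0 of the 10. In S135 whole lung they were 2730 and 2059 of 14707, with 7 and 1. In S151 epithelium they were 3129 and 105 of 13037, with 6 and 0. In S151 whole lung they were 2829 and 432 of 14815, with 3 and 0. The median fold over the 10 genes was 0.84 in whole lung and 1.19 in epithelium, with medians over all genes tested of -0.01 and 0.00.

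**Figure D2:**
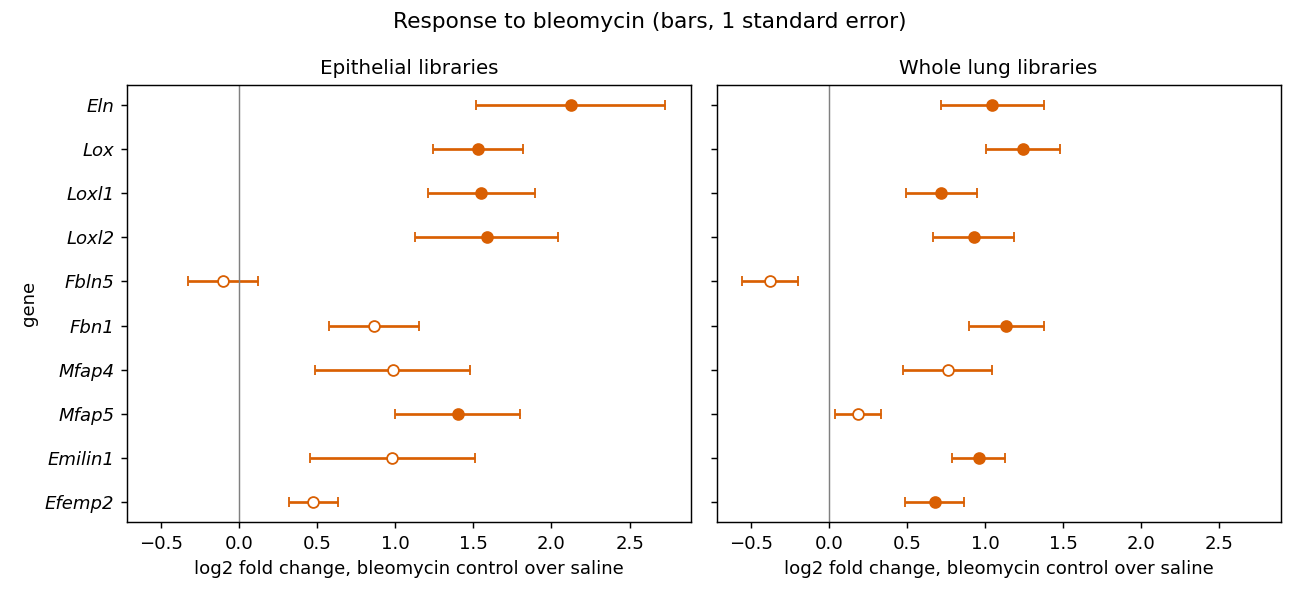
Log2 fold change of bleomycin control over saline for the 10 genes in epithelial (left) and whole lung libraries (right), from the fit with batch as a term. Bars are 1 standard error and filled points have an adjusted p under 0.05. Filled points number 5 in epithelium and 7 in whole lung, and Fbln5 is the gene whose fold lies below 0 in both.

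Fbn1 (ENSMUSG00000027204, chromosome 2: 125300594-125506485), the scaffold of the microfibril, was higher by 1.14 ± 0.24 in whole lung (adjusted p = 0.00555, edgeR). It had 203 and 102 CPM in bleomycin control mice of S135, against 46.9, 54.8 and 53.8 CPM in saline mice. In S151 it had 122, 57.8, 98.4 and 102 CPM in bleomycin control mice, against 25.2, 33.5 and 68.4 CPM in saline mice. The pattern was that of Lox: groups apart in S135, and an overlap in S151 through mice 206 and 230. Epithelial Fbn1 had a fold of 0.86 ± 0.29 (adjusted p = 0.0601, edgeR).

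Emilin1 (ENSMUSG00000029163, chromosome 5: 30913387-30921279), a glycoprotein at the interface of elastin and microfibril that in mice restrains TGFβ processing, was higher by 0.96 ± 0.17 in whole lung (adjusted p = 0.00108, edgeR). It had 21.6 and 12.1 CPM in bleomycin control mice of S135, against 9.75, 8.24 and 5.14 CPM in saline mice. In S151 the gene had 99.0, 65.7, 69.4 and 94.2 CPM in bleomycin control mice, against 29.1, 29.9 and 60.2 CPM in saline mice, with no overlap in either batch. Epithelial Emilin1 had a fold of 0.98 ± 0.53 over both batches (adjusted p = 0.276, edgeR). Within S151 it was called, at 1.81 ± 0.38 (adjusted p = 0.0172, edgeR), and within S135 it was 0.48 ± 1.45, on 0 to 41 counts per library.

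Efemp2 (ENSMUSG00000024909, chromosome 19: 5473946-5482520), the fibulin that brings lysyl oxidase to tropoelastin, was higher by 0.68 ± 0.19 in whole lung (adjusted p = 0.0244, edgeR). In S151 the gene had 87.1, 69.6, 68.5 and 110 CPM in bleomycin control mice, against 40.5, 37.3 and 61.2 CPM in saline mice. In S135 it had 17.0 and 9.53 CPM in bleomycin control mice, against 6.79, 6.07 and 9.23 CPM in saline mice. The groups were apart in both batches, by a narrow margin in S135. In epithelium the fold was 0.47 ± 0.16 (adjusted p = 0.0606, edgeR).

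Mfap5 (ENSMUSG00000030116, chromosome 6: 122513584-122529290), a small microfibril glycoprotein, had the largest difference in fold between the compartments, which was not called. In epithelium it had 4.23 and 4.96 CPM in bleomycin control mice of S135, against 1.04, 2.64 and 1.63 CPM in saline mice. In S151 it had 1.99, 2.34, 11.4 and 2.87 CPM in bleomycin control mice, against 1.33, 1.12 and 1.27 CPM in saline mice. All 6 bleomycin libraries stood above the saline libraries of their batch in CPM, and mouse 208R at 11.4 CPM stood far above the rest. Divided by TMM factors, bleomycin mouse 204 falls under saline mouse 207. In whole lung its fold was 0.19 ± 0.15 (adjusted p = 0.471, edgeR), and the groups overlapped in both batches.

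Mfap4 (ENSMUSG00000042436, chromosome 11: 61485431-61488708), a microfibril protein abundant in lung, had folds of 0.76 ± 0.29 in whole lung (adjusted p = 0.096, edgeR) and 0.98 ± 0.50 in epithelium (adjusted p = 0.243, edgeR). Its S151 whole lung levels were 710, 514, 694 and 822 CPM in bleomycin control mice, against 224, 150 and 676 CPM in saline mice. Saline mouse 230 lay inside the bleomycin range and the other saline mice far below it. Fbln5 (ENSMUSG00000021186, chromosome 12: 101746565-101819119), the fibulin that tethers elastin to integrins and microfibrils, had folds of -0.38 ± 0.18 in whole lung (adjusted p = 0.184, edgeR) and -0.10 ± 0.22 in epithelium (adjusted p = 0.839, edgeR). In S135 whole lung it had 60.4 and 57.6 CPM in bleomycin control mice, against 71.1, 80.1 and 73.4 CPM in saline mice, and in S151 the groups overlapped.

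Promoter sequence was at hand in RefSeq's GRCm38.p6 table for 4 of the 10 genes, in 7 windows of 300 bases, each from 250 bases before a start listed in that table to 50 after it. A listed start need not be the outer end of the gene, and the Emilin1 window lies inside the gene positions given above. Windows are shown for Fbn1 (chr2:125506389-125506688, minus strand) and Emilin1 (chr5:30913536-30913835, plus strand), both higher in whole lung after bleomycin, and for Fbln5 (chr12:101819070-101819369, minus strand), which was not called. Capitals mark CAGAC, the SMAD-binding element of TGFβ signalling, searched on both strands.
Fbn1: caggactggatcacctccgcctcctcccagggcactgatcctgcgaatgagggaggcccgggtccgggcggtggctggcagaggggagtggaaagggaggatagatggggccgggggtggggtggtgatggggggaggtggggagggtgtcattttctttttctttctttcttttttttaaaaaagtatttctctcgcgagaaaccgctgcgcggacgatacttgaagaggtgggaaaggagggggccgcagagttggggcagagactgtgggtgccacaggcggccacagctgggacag
Emilin1: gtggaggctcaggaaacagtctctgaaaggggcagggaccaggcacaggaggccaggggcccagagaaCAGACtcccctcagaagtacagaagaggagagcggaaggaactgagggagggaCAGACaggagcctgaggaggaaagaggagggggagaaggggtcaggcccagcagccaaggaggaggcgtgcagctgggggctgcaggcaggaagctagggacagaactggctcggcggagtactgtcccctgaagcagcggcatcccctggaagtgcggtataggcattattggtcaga
Fbln5: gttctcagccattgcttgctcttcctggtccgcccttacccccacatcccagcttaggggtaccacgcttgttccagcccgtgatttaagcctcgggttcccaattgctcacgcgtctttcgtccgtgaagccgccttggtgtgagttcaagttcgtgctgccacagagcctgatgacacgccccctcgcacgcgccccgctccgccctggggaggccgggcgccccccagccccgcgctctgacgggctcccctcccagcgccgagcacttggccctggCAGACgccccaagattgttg
CAGAC was found in 4 of the 7 windows, and in 49.6% of the 32851 windows of the table. The AP-1 motif TGANTCA was found in 0 of the 7, and in 7.81% of all windows. The match count was 2 in the Emilin1 window, 1 in the Fbln5 window shown and 0 in the Fbn1 window.

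Single mice weighed on these comparisons. Saline mouse 230, the only female of the 3 S151 saline mice, was the highest of them for 10 of 10 genes in whole lung. The only females of the other S151 arms, bleomycin control mouse 225 and 3G9 mouse 226R, were the highest of their arms for 7 and 4. In S135 whole lung the only female, saline mouse 146, was the highest of its arm for 2 and the lowest for 5. In each of these groups sex cannot be told apart from the single mouse. Without saline mouse 230, 8 of 10 genes were called higher after bleomycin in whole lung, Mfap4 among them at 1.13. Leaving out each mouse in turn, the number called in whole lung ran from 3, without bleomycin mouse 148 or 225 or saline mouse 152, 207 or 221, to 8. Lox, Fbn1 and Emilin1 were called in all 15 of these fits, Loxl2 was lost in 6, Efemp2 in 5, Eln in 10 and Loxl1 in 12. In epithelium the number ran from 2, without bleomycin mouse 208R, through 3, without saline mouse 207 or 230, to 6. Lox and Loxl1 were called in all 15 epithelial fits, Eln was lost in 3, Mfap5 in 4 and Loxl2 in 6.

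The mean share of genes depleted from epithelium was higher in bleomycin control than in saline epithelium in both batches that hold saline mice. These genes depleted from epithelium made up 0.345% to 0.739% of epithelial counts in bleomycin control mice of S151, against 0.245% to 0.359% in saline mice. In S135 they made up 0.879% to 0.898% in bleomycin control mice, against 0.479% to 0.699% in saline mice. Among the 4 bleomycin control libraries of S151, 208R was the highest for Eln, Loxl1, Fbn1, Mfap4, Mfap5 and Emilin1 and also had the highest share, 0.739%. Mouse 225, at 0.396%, was the highest for Lox, Fbln5 and Efemp2. In S135, mouse 149 had the higher share of the bleomycin control mice. Mouse 148 there had the higher Lox, Loxl1, Loxl2, Fbn1, Mfap4, Emilin1 and Efemp2. With the log2 of this share as a further term, an alternative added after the data were seen, Lox remained called at 1.34 (adjusted p = 0.0201, edgeR). The other 4 epithelial calls were lost, with folds of 0.88 for Eln, 0.73 for Loxl1, 1.25 for Loxl2 and 0.92 for Mfap5. Why these calls were lost was not tested.

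The fold of bleomycin did not pass a test of difference between compartments for any of the 10 genes (edgeR, 48 libraries with the mouse as a block), where 0.343% of 19808 genes did. Mfap5 came closest, with an epithelial fold higher by 1.01 ± 0.35 (adjusted p = 0.265, edgeR). The adjusted p of the other 9 lay between 0.544 and 0.986. DESeq2 called 0 of the 10. Mfap5 was the 1 of the 10 with an unadjusted p under 0.05, where 1985 of the 19808 genes had one.

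Most of the 10 genes were depleted from epithelium. In saline mice 8 of 10 were lower in epithelium than in whole lung of the same mouse, where 30.3% of 14885 genes were lower. In bleomycin control mice the same 8 genes were lower, where 30.3% of 15624 genes were. In saline mice the epithelial difference was -3.90 ± 0.21 for Mfap5, -3.79 ± 0.34 for Loxl1, -3.79 ± 0.28 for Eln, -3.52 ± 0.39 for Loxl2 and -2.91 ± 0.23 for Fbn1. The smallest of the 8 was that of Lox, at -2.38 ± 0.22 in saline mice and -1.96 ± 0.14 in bleomycin control mice (adjusted p = 3.06e-06 and 4.56e-08, edgeR). Lox is also the gene with the highest epithelial share of the 8 in median: 12% of the whole lung CPM of the same mouse over 24 mice, between 5.25% and 32.2%. This order does not hold in every arm: in the 5 KIRA8 mice the median was 7.53% for Lox, against 12.8% for Emilin1, 9.25% for Loxl2 and 8.37% for Fbn1. Over all mice the other 7 had medians between 4.09% and 8.98%, with Eln taken over the 11 mice of S151.

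The fibulins were less depleted. Fbln5 had an epithelial level of 41.8% to 230% of whole lung CPM, with a median of 94.0%, and was at or above 100% in 10 of 24 mice. In the fit it was higher in epithelium by 0.39 ± 0.12 in saline mice (adjusted p = 0.0161, edgeR) and by 0.76 ± 0.12 in bleomycin control mice (adjusted p = 8.13e-05, edgeR). It was the 1 member called higher in each, where 27.3% and 30.5% of genes were. This direction rests on the scaling. Scaled by library totals, the median fold of all genes was -0.84 in saline mice and -0.49 in bleomycin control mice. By that scaling Fbln5 was lower in saline epithelium by 0.38 (log2 fold -0.38, adjusted p = 0.0406, edgeR). In bleomycin control mice its fold was 0.27 (adjusted p = 0.172, edgeR). Efemp2 had a median of 49.8%. In bleomycin control mice its epithelial difference was -0.43 ± 0.18 (adjusted p = 0.0509, edgeR), just short of a call, and it was called lower in 7 of 8 other settings, library totals among them at -0.94. The exception was S135 alone, at 0.33 (adjusted p = 0.43, edgeR). In saline mice the difference was 0.11 ± 0.16, and by library totals Efemp2 was called lower at -0.67. Under either scaling and in both arms, the folds of both fibulins lay above those of the other 8 genes.

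**Figure D3:**
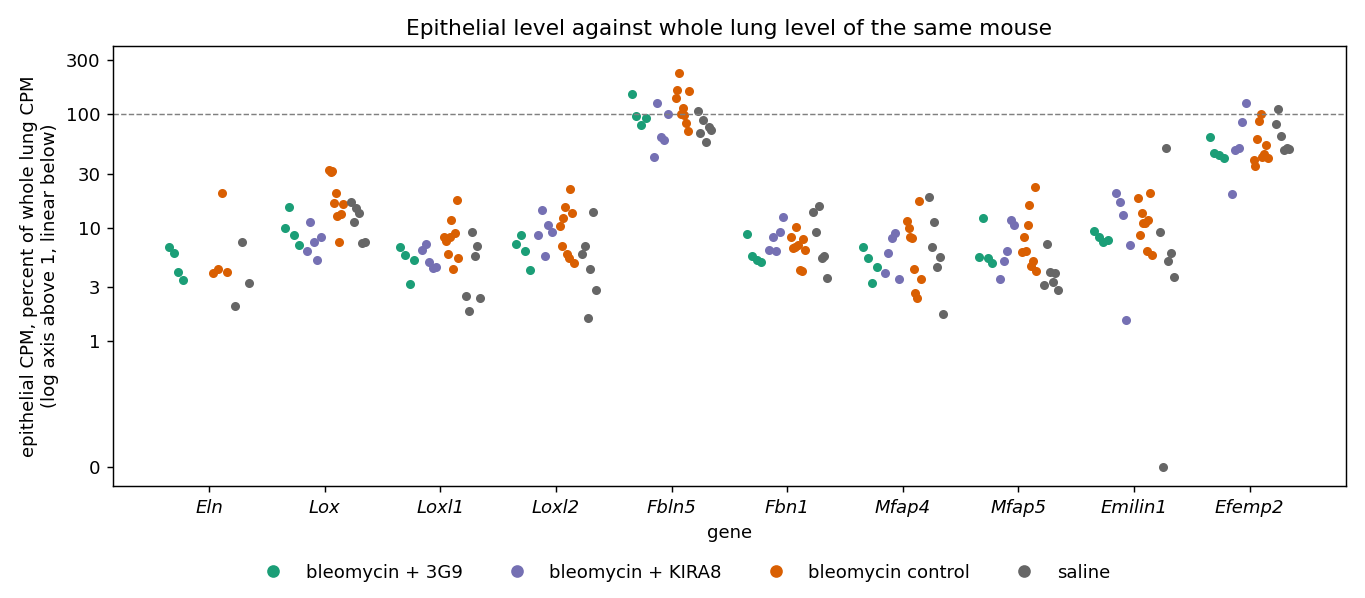
Epithelial CPM as a percentage of the whole lung CPM of the same mouse, for each gene and arm (log axis above 1, linear below; 24 mice, and the 11 of S151 for Eln). The dashed line marks 100%. Fbln5 lies around it with a median of 94.0%, Efemp2 lies mostly below it with a median of 49.8%, and the other 8 genes lie mostly between 1 and 30%.

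Under KIRA8, epithelial Lox was lower in both batches. It had 9.26, 7.51 and 8.74 CPM in KIRA8 epithelium of S061, against 51.2, 59.7 and 44.7 CPM in bleomycin control epithelium. In S135 it had 1.15 and 2.37 CPM in KIRA8 epithelium, against 10.6 and 5.86 CPM in bleomycin control epithelium and 2.57, 2.15 and 2.88 CPM in saline epithelium. Every KIRA8 library lay below every bleomycin control library of its batch, on 17 to 274 and 97 to 1302 counts. The log2 fold was -2.29 ± 0.32, with -2.44 ± 0.18 within S061 and -2.14 ± 0.67 within S135. Since this difference was already known when the genes were chosen, it is given as a description with no test.

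In S061 the share of genes depleted from epithelium was 7.42% to 10.3% in KIRA8 epithelium, against 5.02% to 7.34% in bleomycin control epithelium. The batch-limited genes put these libraries in the same order, at 9.25% to 12.7% against 6.01% to 8.59%. The S061 share therefore cannot be read as RNA from other lung cells alone, and what it holds was not tested. In S135 the share of genes depleted from epithelium was 0.585% and 0.885% in KIRA8 epithelium, against 0.879% and 0.898% in bleomycin control epithelium. With that share as a term, S061 included, the Lox fold was -2.35. In whole lung, Lox had 150, 67.2 and 116 CPM in KIRA8 mice of S061, against 159, 193 and 140 CPM in bleomycin control mice. In S135 it had 21.8 and 28.4 CPM in KIRA8 mice, against 63.7 and 28.8 CPM in bleomycin control mice. The whole lung fold was -0.72 ± 0.25 (adjusted p = 0.175, edgeR), and the epithelial fold was lower than it by 1.57 (difference -1.57 ± 0.23). This difference too was known beforehand, and the same interaction was called for 0.0505% of 19808 genes. As a share of whole lung CPM, epithelial Lox was 6.19% to 11.2% in KIRA8 mice of S061, against 30.9% to 32.2% in bleomycin control mice. In S135 it was 5.25% and 8.35% in KIRA8 mice, against 16.6% and 20.4% in bleomycin control mice and 11.2% to 17.0% in saline mice.

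**Figure D4:**
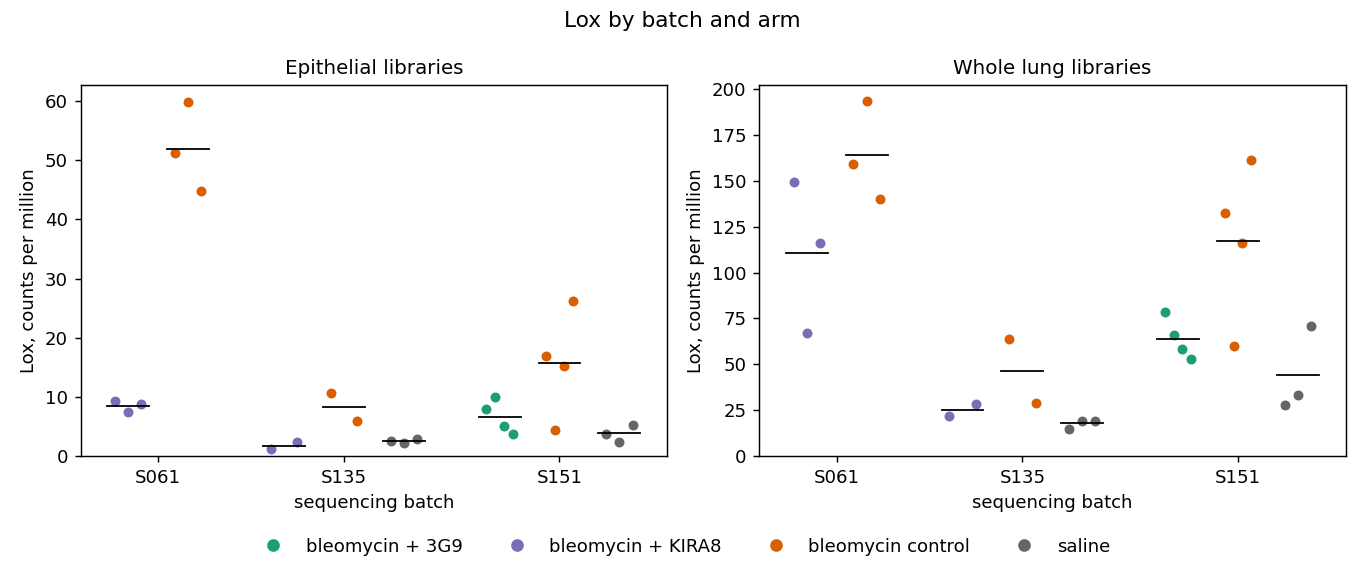
Lox in CPM by sequencing batch and arm, in epithelial (left) and whole lung libraries (right). Points are mice and horizontal lines are group means. Epithelial KIRA8 libraries lie between 7.51 and 9.26 CPM in S061, against 44.7 to 59.7 CPM in bleomycin control libraries, and the whole lung groups of S061 overlap.

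The other 9 genes were not called under KIRA8 in epithelium, where 0.26% of 17291 genes were. Their folds ran from -0.63 ± 0.31 for Fbn1 and -0.61 ± 0.38 for Loxl1 to -0.07 ± 0.25 for Fbln5, with adjusted p between 0.448 and 0.989 (edgeR). The highest adjusted p is that of Eln, at -0.18 ± 1.575, whose counts were too low to assess it. Among the rest the highest was 0.95, for Fbln5 (edgeR). Some were lower within a single batch. In S135, Emilin1 had 0.202 and 0.838 CPM in KIRA8 epithelium, against 2.38 and 1.33 CPM in bleomycin control epithelium, on 3 to 31 counts. Loxl1 had 2.36 and 3.21 CPM in KIRA8 epithelium of S135, against 9.53 and 7.37 CPM in bleomycin control epithelium. Without S061 the fold of Emilin1 was -2.39 ± 1.03 (adjusted p = 0.467, edgeR) and that of Lox -2.19 ± 0.60, while within S061 Emilin1 had 0.18 ± 0.27 and Loxl1 -0.26 ± 0.30. In S061, Mfap5 had 1.23, 1.83 and 2.20 CPM in KIRA8 epithelium, against 2.71, 3.40 and 2.92 CPM in bleomycin control epithelium, and Efemp2 had 3.02, 2.87 and 3.67 CPM, against 3.79, 4.73 and 4.84 CPM. For both, the groups were apart in S061 in CPM and overlapped in S135. Divided by TMM factors, Efemp2 of KIRA8 mice 20 and 41 rises above that of bleomycin control mouse 17. Such separation was common: 3546 of 13368 epithelial genes over 1 CPM were wholly lower with KIRA8 in S061, and 3416 of 12983 in S135. Eln, at 0 to 0.271 CPM in the epithelial libraries of S061 and S135, could not be assessed. In whole lung, edgeR called 0 of the 10 under KIRA8, where 0.527% of 19345 genes were called. Of all 19345 genes, 2977 had an unadjusted p under 0.05, and of the 10 genes 4 did. These were Fbn1 (-0.84 ± 0.26, adjusted p = 0.127), Lox, Loxl2 (-0.70 ± 0.28, adjusted p = 0.233) and Fbln5 (0.57 ± 0.20, adjusted p = 0.169). DESeq2 called 1, Fbn1, where it called 4.4% of all genes. Fbln5 had 20.0, 25.7 and 21.96 CPM in KIRA8 whole lung of S061, against 12.7, 13.4 and 9.85 CPM in bleomycin control whole lung, a difference of opposite sign to those of the 3 oxidases. Without KIRA8 mouse 20, which had the highest Lox, Loxl1, Loxl2 and Fbn1 of its arm in S061, Fbn1 (-1.11) and Loxl2 (-1.06) were called lower.

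Under 3G9, Eln stood lowest against bleomycin control. In S151 whole lung it had 187, 228, 316 and 151.3 CPM in 3G9 mice, against 851, 477, 955 and 1357 CPM in bleomycin control mice and 282, 241 and 556 CPM in saline mice. In epithelium it had 12.6, 13.6, 12.8 and 5.25 CPM in 3G9 mice, against 34.1, 20.7, 195 and 55.5 CPM in bleomycin control mice and 5.77, 18.1 and 17.97 CPM in saline mice. Every 3G9 library was below every bleomycin control library in both compartments, and the 3G9 and saline ranges overlapped. The folds of 3G9 over bleomycin control were -1.95 ± 0.33 in whole lung and -2.77 ± 0.57 in epithelium, given as a description since the genes were chosen with this difference known. Without bleomycin control mouse 208R, at 195 CPM, the epithelial fold was -1.64. The share of genes depleted from epithelium overlapped between the arms, at 0.317% to 0.706% in 3G9 epithelium and 0.345% to 0.739% in bleomycin control epithelium.

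**Figure D5:**
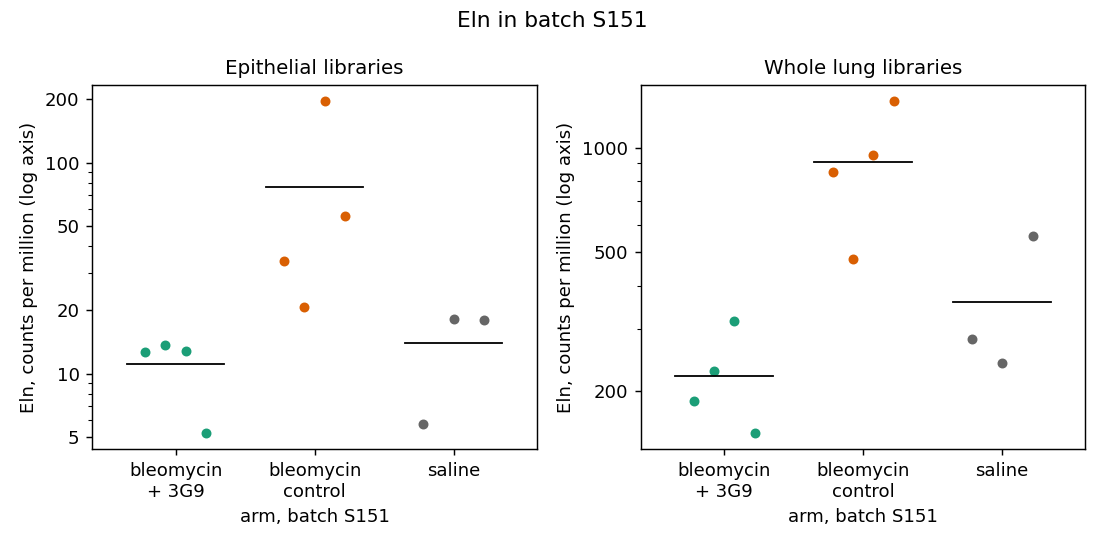
Eln in CPM (log axes) in batch S151, by arm, in epithelial (left) and whole lung libraries (right). Points are mice and horizontal lines are group means. The 3G9 mice lie between 151.3 and 316 CPM in whole lung and between 5.25 and 13.6 CPM in epithelium, below all bleomycin control mice.

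The other 9 genes all had folds under 0 with 3G9 in both compartments, and none was called. Their median fold was -0.77 in epithelium and -0.51 in whole lung, with medians over all genes tested of 0.01 and -0.01. These folds share their bleomycin control mice with the bleomycin comparison, and several of the genes vary together. The signs are therefore not independent of that comparison or of each other. In whole lung the folds ran from -0.82 ± 0.28 for Lox and -0.69 ± 0.29 for Fbn1 to -0.11 ± 0.22 for Efemp2, with adjusted p between 0.36 and 1 (edgeR), where 0.196% of 19345 genes were called. Lox in S151 whole lung had 78.7, 66.2, 58.3 and 53.1 CPM in 3G9 mice, against 132, 59.9, 116 and 161 CPM in bleomycin control mice. The groups overlapped through mouse 206. Mfap5 had 27.5, 28.9, 28.5 and 50.8 CPM in 3G9 mice, against 43.5, 45.7, 49.8 and 68.8 CPM in bleomycin control mice. Its fold of -0.51 ± 0.18 (adjusted p = 0.36, edgeR) was called without 3G9 mouse 228, at -0.78 (adjusted p = 0.0151, edgeR). In epithelium edgeR called 0 of 17291 genes (0%), with 566 at an unadjusted p under 0.05, of which 2 were among the 9. The folds for Loxl1 and Lox were -1.45 ± 0.41 and -1.10 ± 0.33 (adjusted p = 0.813 for both). Loxl1 had 4.69, 4.91, 3.26 and 3.33 CPM in 3G9 epithelium, against 5.98, 7.76, 21.4 and 8.38 CPM in bleomycin control epithelium, with no overlap in CPM. Divided by TMM factors, 3G9 mouse 219 rises just above bleomycin control mouse 204. Between these arms, 239 of 13272 epithelial genes over 1 CPM were wholly lower with 3G9 and 36 wholly higher. Of the 9, DESeq2 called Loxl1 in epithelium, where it called 0.7% of all genes. The test of a difference between compartments called 0 of 19808 genes for 3G9 (0%) by edgeR, with 448 at an unadjusted p under 0.05, and 0 by DESeq2. None of these 448 was among the 9.

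Treated mice were also set against saline mice. Both arms share their saline mice with the bleomycin comparison, so these folds are not independent of it. In epithelium edgeR called 0 of the 10 with KIRA8, where 1.06% of 17291 genes were called, and 0 with 3G9, where 4.24% were. In whole lung it called 0 of the 10 with KIRA8, where 0.258% of 19345 genes were called. With 3G9 it called 1, where 10.4% were: Fbln5, lower by 0.77 (log2 fold -0.77 ± 0.23, adjusted p = 0.0349). With KIRA8 and 3G9 in that order, members with an unadjusted p under 0.05 numbered 2 and 1 in epithelium. There, 2469 and 3005 of 17291 genes had one. In whole lung they numbered 2 and 4, where 2026 and 5046 of 19345 genes had one. DESeq2 called 0 and 0 members in epithelium, where it called 2.71% and 7.11% of genes. In whole lung DESeq2 called 0 and 3, where it called 1.34% and 17.6% of genes. Fbln5 had 35.8, 49.0, 56.7 and 90.0 CPM in 3G9 whole lung, against 75.8, 52.9 and 128 CPM in saline whole lung of S151, and the groups overlapped. The call was lost without saline mouse 230 or any of 3G9 mice 218, 219 and 226R. Emilin1 was next, at 0.62 ± 0.21 (adjusted p = 0.0525, edgeR), with 54.9, 72.2, 74.0 and 56.2 CPM in 3G9 mice, against 29.1, 29.9 and 60.2 CPM in saline mice. Eln had a fold of -0.90 ± 0.35 (adjusted p = 0.0999, edgeR).

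Across the 24 whole lung libraries, with log2 levels centred within batch, the genes most like Lox by Pearson's r were ENSMUSG00000026042 (0.951), ENSMUSG00000026043 (0.945) and, the third of 19178, Fbn1 (0.943). Loxl1 (0.891), Loxl2 (0.848), Efemp2 (0.827) and Emilin1 (0.822) were also among the 100 most like Lox, while Fbln5 had an r of -0.11. The genes most like Eln were ENSMUSG00000042804 (0.815) and ENSMUSG00000097027 (0.798), and Loxl1 was the nearest member (0.635). These values describe libraries that share mice, batches and depth, and in 13 of the 24 Eln was under 2 CPM.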

How the data were processed

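RNA from epithelium and whole lung of 24 mice was sequenced from its 3′ end (Lexogen QuantSeq Forward, per the labels' protocols). The authors deposited 1 table of raw read counts, whole numbers with no normalization, for 42548 Ensembl genes and 48 libraries. STAR 2.5.2b and GRCm38 were used, per the submitters' processing notes, and the counting program and its use of strand are not stated in the sources used here. RefSeq lncRNAs overlap Eln (Gm30003) and Loxl2 (Gm27177), so reads there cannot be assigned with certainty. Columns were matched to samples by mouse number and a letter (E taken as epithelium, I as whole lung). The column for whole lung of 3G9 mouse 218 has a suffix that the labels do not explain. No column was left out, and no 2 libraries held identical values.

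Counts were tested in R 4.3.3 with edgeR 4.0.16 (TMM scaling, filterByExpr, robust quasi-likelihood F test, Benjamini-Hochberg over all genes tested). The standard error is the absolute log2 fold over the square root of F. Arms were compared within a compartment in 1 fit of 24 libraries with batch as a term. Compartments were compared with the mouse as a block, since both libraries came from the same mouse, and differences between compartments in a fit of 48 libraries with the mouse as a block and batch per compartment. Levels printed as CPM use library totals and folds use TMM. DESeq2 1.42.0, other scaling, no filter, single batches, sex and leaving out each mouse were alternatives. The fit was tested on simulated counts.

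Gene names come from the list of members. All 10 were found by symbol in RefSeq's GRCm38.p6 table, which gives the positions. That table matched 0 of the 42548 Ensembl identifiers, so lists of other elastic fibre genes and of cell type markers were not applied. The rule for named genes was all 10 members in every comparison, plus the genes most like Eln and Lox. The members and lists were chosen with earlier results of these data known. Lox with KIRA8 in epithelium and Eln with 3G9 are therefore described without a test and left out of the counts of calls.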

Additional observations from a re-analysis of the deposited data

Results flagged for a closer look

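Among 40 groups of 4 mice (10 genes, 2 arms of S151 and 2 compartments), 5 held a mouse far from the other 3 by Dixon's test. Chance gives about 1 in 20 for independent groups. These groups are not independent, since the genes share libraries and several vary together. All 5 flags fall on mice 208R and 228. Bleomycin control mouse 208R stood high in epithelium for Loxl1 at 21.4 CPM, Mfap4 at 120 CPM and Mfap5 at 11.4 CPM, and its library also had the highest share of genes depleted from epithelium among the 4 of its arm in S151, 0.739%. 3G9 mouse 228 stood low in epithelium for Eln at 5.25 CPM and high in whole lung for Mfap5 at 50.8 CPM.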

How the results depend on the processing

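After bleomycin, 5 of the 10 genes were called in epithelium and 7 in whole lung, Lox and Eln among them in both. Single batches hold fewer mice: within S135 alone, 0 were called in epithelium and 4 in whole lung, and within S151 alone, 1 and 0. The folds of the genes that lost their call stayed above 0, except that Eln could not be fitted in S135. In epithelium they were 1.497 for Lox, 2.11 for Loxl1, 2.28 for Loxl2 and 1.18 for Mfap5 in S135, and 1.57, 1.44, 1.29 and 1.52 in S151. Without the filter on low counts, 4 were called in whole lung. With the share of genes depleted from epithelium as a term, 1 was called in epithelium. Lox with KIRA8 in epithelium and between compartments, and Eln with 3G9, are left out of the counts that follow, which cover 9 genes there. Over the settings other than leaving out a mouse, the fold of Lox lay between -2.54 and -2.14 in epithelium and its difference between compartments between -1.82 and -1.36, and that of Eln between -2.80 and -2.28 in epithelium and between -2.02 and -1.92 in whole lung. DESeq2 called 1 with 3G9 in epithelium, 1 with KIRA8 in whole lung, and 3 with 3G9 against saline in whole lung, where sex as a term gave 2 and S151 alone or leaving out S061 gave 0. Library totals gave 1 with 3G9 against saline in epithelium, where 7.88% of all genes were called. They gave 1 in the difference of bleomycin between compartments, where 1.24% were. In the difference of KIRA8 between compartments, DESeq2 and no filter each called 1, Fbln5 at -0.74, where they called 2.48% and 0.542% of all genes. There, the fit with no replicate block, in place of the mouse as a block, called 0 and gave Lox -1.59. In saline mice the fit with no replicate block called 8 of 10 genes between compartments in place of 9, losing Fbln5 at 0.39, and in bleomycin control mice 10 in place of 9.

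Leaving out each mouse in turn, the calls after bleomycin ran from 2 to 6 in epithelium and from 3 to 8 in whole lung. With 3G9 in whole lung they ran from 0 to 1, without 3G9 mouse 228, and with 3G9 against saline from 0 to 3. With KIRA8 in whole lung they ran from 0 to 2, and in epithelium the count was 0 throughout. The difference between compartments was refitted only without KIRA8 or 3G9 mice, with a count of 0 in each. Leaving out saline or bleomycin control mice there was not run.

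Directions turned for folds near 0. Fbln5 after bleomycin in epithelium was 0.085 within S151, 0.25 by library totals, 0.10 with the share as a term and between -0.22 and 0.077 when a mouse was left out, the highest without saline mouse 230. Mfap4 in epithelium was -0.18 with that share, and Mfap5 in whole lung was -0.10 within S135. Between compartments, Fbln5 was -0.38 and Efemp2 -0.67 in saline mice by library totals. Efemp2 was -0.078 in saline mice within S151 and 0.33 in bleomycin control mice within S135. The cause was not tested.

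Over all genes, DESeq2 called 91 higher and 172 lower with KIRA8 in epithelium, where edgeR called 15 and 30. With 3G9 it called 35 and 141 in epithelium, where edgeR called 0 and 0, and 154 and 177 in whole lung, where edgeR called 32 and 6. Low counts limit Emilin1, Loxl2 and Mfap5 in epithelium. Eln had at most 72 counts per library outside S151, although whole lung libraries were of similar depth in S061, at 21864200 to 51797377 reads, and in S151, at 25945089 to 36945995.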
